A study of Mus musculus with 1 sample.

Results

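The 9 genes described here encode the colony-stimulating factors CSF1 and CSF2, their receptor chains and 4 transcription factors of the myeloid lineage, and they were read in cultured mouse glia. They were taken as the rows whose symbol was Csf1, Csf1r, Csf2, Csf2ra, Csf2rb, Spi1, Irf8, Runx1 or Sall1, which gave 9 of the 23282 rows in the table, 1 row per gene. Mixed glia from the ventral midbrain (VM) of outbred ICR (CD-1) mice at postnatal day 5 had been grown in serum-containing medium, passaged near confluence, and sequenced. The study asked how inhibition of the kinase SGK1 alters such glia. The only library analysed here belonged to the control group, which received the vehicle DMSO according to a figure legend of the study. The inhibitor-treated group was not analysed here, so no value below has a replicate, an error or a test, and no contrast between conditions was made. Whether pups were pooled for the culture is not given in the sources used here.

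Microglia are the resident macrophages of the brain, and their survival depends on the receptor tyrosine kinase CSF1R. It is bound by 2 ligands, CSF1 and interleukin 34. CSF2, also known as GM-CSF, acts through a receptor made of a specific alpha chain (CSF2RA) and a common beta chain (CSF2RB), which is shared with the receptors for interleukins 3 and 5. PU.1 (encoded by Spi1), IRF8 and RUNX1 are transcription factors that establish the macrophage lineage, and SALL1 is a zinc finger factor that sets microglia apart from other macrophages in the adult brain.

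The values were read counts normalised by the authors and given as whole numbers, and they summed to 27569507. A gene at 10 or more was taken as detected, which held for 15648 rows (67.2%), with a median value of 469. Values are given per 1000000 of this sum as well and, to compare genes, per kb of annotated exon and per 1000000 (the length-scaled level, with a median of 3.72 over detected genes). Of the 9 genes, 8 were detected, and 7 exceeded the median value of detected genes. Their median value was 3863 and their median length-scaled level was 19.3. Together they held 0.202% of the sum, of which Csf1r alone supplied 56.4%.

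**Figure D1:**
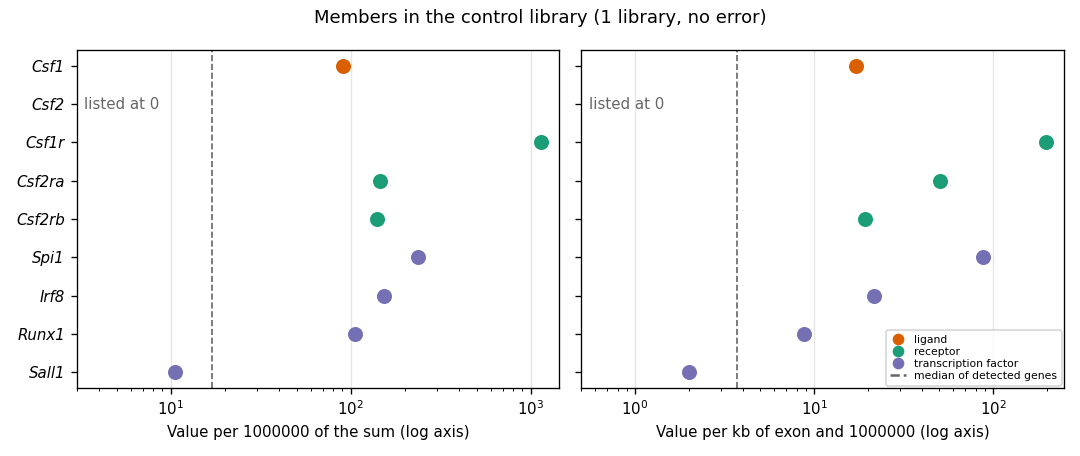
Level of each of the 9 genes in the control library, as the value per 1000000 of the sum (left) and per kb of exon and 1000000 (right), both on log axes. Each point is 1 gene in 1 library, colours give the role of the product, and the dashed line is the median of detected genes. Csf1r lies furthest to the right on both scales, Sall1 lies left of the dashed line on both, and Csf2 was listed at 0.

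Among the ligands, Csf1 was present and Csf2 was not seen. Csf1 (chromosome 3, 107741048 to 107760469, minus strand, GRCm38) had a value of 2484, or 90.1 per 1000000, above 86.3% of detected genes. Its length-scaled level of 17.1 was above 81.5% of them. Csf2 (chromosome 11, 54247271 to 54249667, minus strand) was listed at 0. The second CSF1R ligand, Il34, was low, with a value of 41 and a length-scaled level of 0.759. Csf1 therefore exceeded Il34 by 3.36 on the log2(length-scaled level + 1) scale, and by 22.5-fold as a ratio of length-scaled levels. The log2 difference was 5.19 when values were not divided by length. The other ligands listed, Csf3 (the granulocyte factor G-CSF), Il3 and Il5, were also listed at 0. Il3 lies close to Csf2 on chromosome 11, at 54265303 to 54267277.

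The receptor Csf1r (chromosome 18, 61100598 to 61132149, plus strand) stood highest of the 9 genes. Its value was 31413, or 1139 per 1000000, which ranked 74 of all rows and was above 99.5% of detected genes. Its length-scaled level was 197, above 98.3% of them. It exceeded the ligand Csf1 11.6-fold in length-scaled level, a log2 difference of 3.46. Exons of Csf1r share 873 bases (15.1% of its exon length) with Hmgxb3 on the opposite strand. Hmgxb3 had a value of 724, far under that of Csf1r. The part of the overlap in either value was not tested, since the strand setting of the counting is not given in the sources used here.

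Both chains of the CSF2 receptor were well above the median of detected genes although the ligand was listed at 0. Csf2ra (chromosome 19, 61223957 to 61228429, minus strand) had a value of 3991, and Csf2rb (chromosome 15, 78325752 to 78353847, plus strand) one of 3863. These values were above 92.2% and 91.9% of detected genes. Per length the chains stood further apart, with Csf2ra at 50.4 and Csf2rb at 19.3, a log2 difference of -1.34 for Csf2rb minus Csf2ra. The gap rests on the annotated length: it was -0.047 without division by length and -0.25 with the median length of protein-coding transcripts. Csf1r exceeded Csf2rb 10.2-fold in length-scaled level.

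Mice carry a second beta chain gene, Csf2rb2, whose product serves the interleukin 3 receptor and which lies beside Csf2rb in the opposite orientation (chromosome 15, 78282507 to 78305721). It had a value of 2175 and a length-scaled level of 16.6, against 19.3 for Csf2rb, a log2 difference of 0.20 for Csf2rb minus Csf2rb2. That difference was 1.74 with the median length of protein-coding transcripts and 0.82 without division by length. The annotated coding sequences (2688 bases for Csf2rb and 2634 for Csf2rb2) were identical at 95.2% of 2628 aligned bases. They held 15 identical runs of 50 bases or more, so a 50-base read lying wholly within such a run matches both genes. With both beta chain genes summed over their mean length, the log2 difference from Csf2ra was -0.46.

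The longest identical run spans 242 coding bases, numbers 2083 to 2324 in both genes counted from the first base of the start codon. It lies in an exon at chr15:78348577-78348818 (plus strand) in Csf2rb and at chr15:78284630-78284871 (minus strand) in Csf2rb2. It is shown because a read that falls within it fits both genes equally well.
Shared run: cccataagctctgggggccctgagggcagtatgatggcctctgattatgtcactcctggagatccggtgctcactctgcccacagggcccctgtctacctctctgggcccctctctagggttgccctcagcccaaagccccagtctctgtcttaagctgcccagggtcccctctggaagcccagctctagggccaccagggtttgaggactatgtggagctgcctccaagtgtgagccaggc
The 90-base window with the most differences is shown beside it, since reads there can tell the genes apart. It holds 16 differing bases, given in capitals, and covers coding bases 308 to 397 of Csf2rb (chr15:78338897-78338986, plus strand) and 311 to 400 of Csf2rb2 (chr15:78294345-78294434, minus strand). The sequences are those of the GENCODE M21 transcripts on GRCm38.
Csf2rb: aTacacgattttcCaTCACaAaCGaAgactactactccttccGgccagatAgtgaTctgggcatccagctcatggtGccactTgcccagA
Csf2rb2: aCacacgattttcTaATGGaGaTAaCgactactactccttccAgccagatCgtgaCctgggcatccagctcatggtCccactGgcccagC

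How far the other genes share transcript sequence was measured as the share of all 50-base sub-sequences of a gene's transcripts that also occur, on either strand, in a transcript of another gene. It was 0 for Csf1, Csf2ra, Spi1, Irf8 and Sall1. For Csf2rb, 892 of 7268 sub-sequences (12.3%) also occurred in Csf2rb2. Csf1r shared 14.3%, all of it with the opposite-strand gene Hmgxb3. Runx1 shared 0.470% and Csf2 6.39%, in both cases with an overlapping antisense gene. At 100 bases the share with Csf2rb2 was 4.63%, while that of Csf1r was 13.5%. No annotated transcript of another gene matched the 5 genes at 0 exactly over 50 bases.

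**Figure D2:**
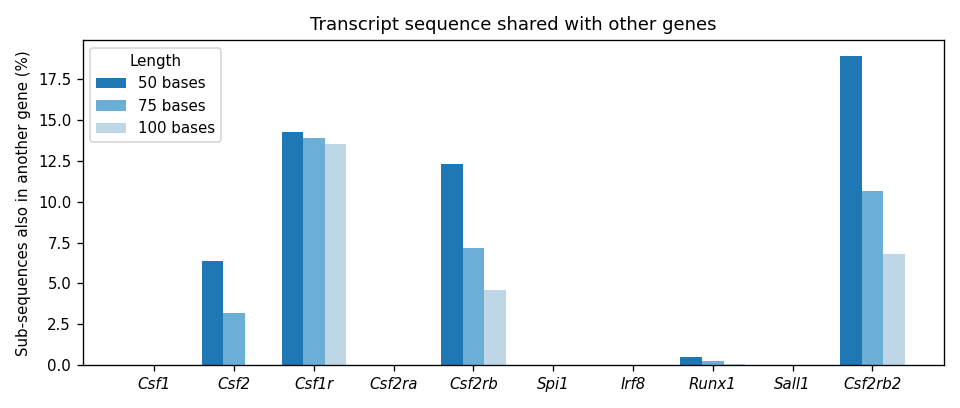
Share of the sub-sequences of each gene's annotated transcripts (y axis, percent) that also occur in a transcript of another gene on either strand, for sub-sequences of 50, 75 and 100 bases (bar shades). Csf1r stays near 14% at each length, Csf2rb falls from 12.3% to 4.63%, and 5 of the 9 genes are at 0 throughout. Csf2rb2 is drawn for comparison.

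Receptors for related cytokines were read from a list of 8 genes, of which 7 (87.5%) were detected, against 67.2% of all rows. Csf3r, the receptor of the granulocyte factor, was at 1131, and Il3ra and Il5ra, the alpha chains that pair with the beta chain, were at 134 and 24. In length-scaled level Csf2ra at 50.4 was above Csf3r at 11.4, Il3ra at 1.64 and Il5ra at 0.244. Ptprz1 and Sdc1, a phosphatase and a proteoglycan that also bind interleukin 34, had values of 1257 and 803. The progenitor receptors Kit and Flt3 were at 22 and 4, the latter under the minimum.

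Signalling genes downstream of the receptors were all detected, 28 of 28 against 67.2% of all rows, with a median value of 1725.5 against 469 for detected genes. The highest were Ptpn6 at 12215, Inpp5d at 9306 and Akt1 at 8212. Ptpn6 and Inpp5d encode the phosphatases SHP-1 and SHIP-1, which restrain signalling in blood cells, and Akt1 encodes a kinase found in most cells. In length-scaled level the highest was Tyrobp at 442, the adaptor DAP12, above the 197 of Csf1r. Socs1 was lowest at 56, followed by Cish at 58. These are feedback inhibitors that STAT5 and related factors induce after cytokine stimulation. Jak2, the kinase bound to the beta chain, was at 1403, and its substrates Stat5a and Stat5b were at 153 and 634. Adam17, a protease that sheds CSF1R from the cell surface, was at 4325.

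**Figure D3:**
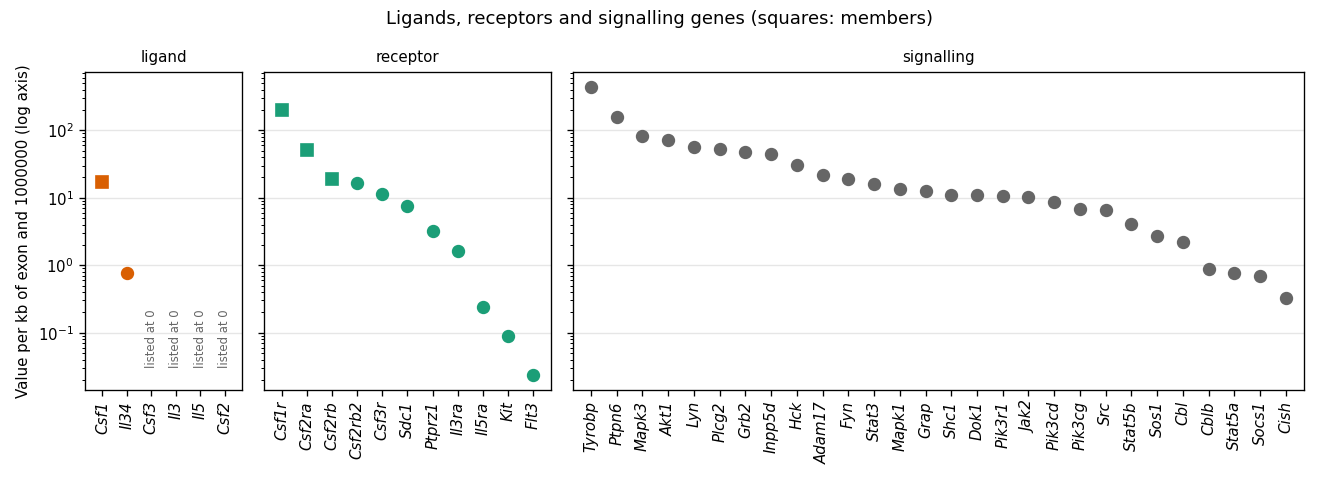
Value per kb of exon and 1000000 (log y axis) of ligand, receptor and signalling genes in the control library, 1 point per gene, ordered within each panel. Squares are the CSF1 and CSF2 genes among the 9 described. Csf1 stands above Il34 among ligands, 4 ligands were listed at 0, and Csf1r at 197 stands above all other receptors drawn.

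The 4 transcription factors were ordered Spi1, Irf8, Runx1 and Sall1 on both scales. Spi1 (chromosome 2, 91082390 to 91115756, plus strand) had a value of 6539, above 95.9% of detected genes, and a length-scaled level of 88.0. Irf8 (chromosome 8, 120736358 to 120756694, plus strand) had a value of 4222, above 92.7%, and a length-scaled level of 21.7. Both factors stood high among all genes of the library. Spi1 exceeded Irf8 by 1.97 on the log2 scale per length, and by 0.63 without division by length.

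Runx1 and Sall1 were lower. Runx1 (chromosome 16, 92601466 to 92826149, minus strand) had a value of 2910, above 88.5% of detected genes. Its length-scaled level was 8.78, above only 69.5%, since its annotated exons sum to 12025 bases, the most of the 9 genes. Sall1 (chromosome 8, 89027235 to 89044162, minus strand) had a value of 290, above 40.0% of detected genes, and a length-scaled level of 2.00, above 36.4%. It was the only detected gene of the 9 under the median of detected genes, on either scale. Irf8 exceeded Runx1 by 1.22 on the log2 scale per length, and Runx1 exceeded Sall1 by 1.71. The latter difference was 4.18 with the median length of protein-coding transcripts.

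Within its family each factor had a different standing. Of 14 Ets family genes Spi1 had the highest length-scaled level, 88.0 against 15.2 for Etv5, the next. Its closest relatives, the lymphoid factor Spib and the red pulp macrophage factor Spic, had values of 6 and 10. Irf8 had the highest value of 9 Irf genes, but per kb of annotated exon it came after Irf5, an activator of inflammatory cytokine genes, at 46.9 against 21.7. That order rests on the exon length, 7055 bases for Irf8 and 2905 for Irf5. The median protein-coding transcripts have 1777 and 1693 bases, and with those lengths Irf8 stays above Irf5. Irf5 had a value of 3753, Irf2 991, Irf9 926, Irf3 736, Irf1 484 and Irf7 399. Irf4, the nearest relative of Irf8 and a factor of lymphoid cells, was at 13. Exons of Irf5 share bases with Tnpo3 on the opposite strand.

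Runx1 had the highest value in its family, with Runx3 at 1318 and Runx2, the bone factor, at 993. Per kb of annotated exon the order of Runx1 and Runx3 turned, with 8.78 for Runx1 and 9.56 for Runx3. That turn rests on the exon length, 12025 bases for Runx1 and 5003 for Runx3. The longest transcripts have 5861 and 3884 bases, and with those lengths Runx1 stays above Runx3. Cbfb, the partner that RUNX proteins need to bind DNA stably, had a value of 1809 and a length-scaled level of 18.9. This level was above those of the 3 Runx genes. The lead over Runx1 rests on the length used, as the median protein-coding transcripts have 2796 bases for Cbfb and 1985 for Runx1. Runx1t1 was at 170. Sall1 was close to Sall2 on both scales, with values of 290 and 293 and length-scaled levels of 2.00 and 1.96. Sall3 was at 236 and the stem cell factor Sall4 at 12. Genes of the Sall family are also active in neural precursors, so their source in a mixed culture is not given by these values.

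**Figure D4:**
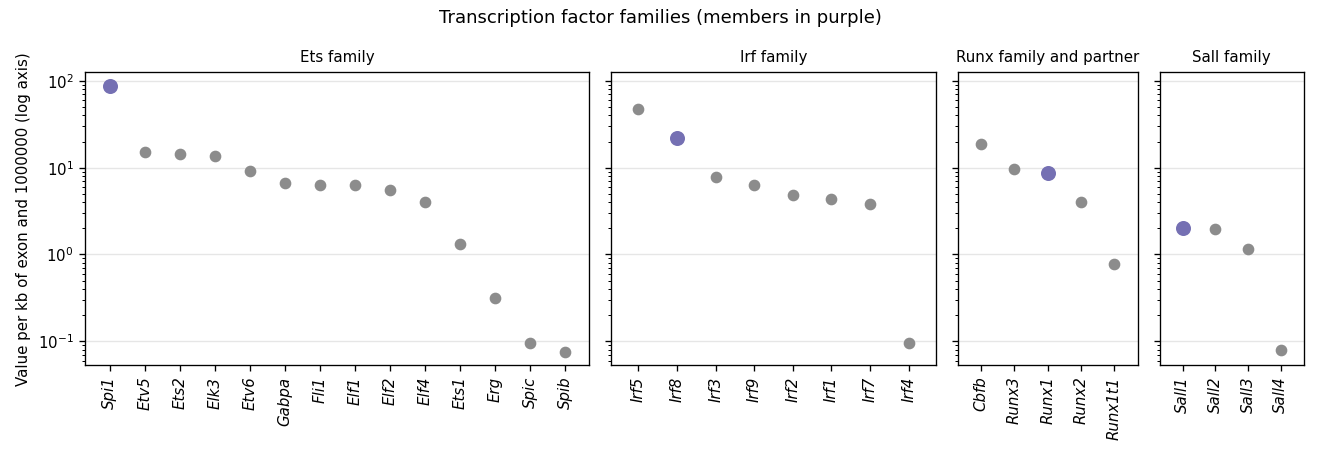
Value per kb of exon and 1000000 (log y axis) for genes of the Ets, Irf, Runx and Sall families in the control library, ordered within each panel, with the 4 myeloid factors in purple; genes listed at 0 are not drawn. Spi1 at 88.0 stands apart from the next Ets gene at 15.2, Irf8 comes after Irf5, Runx1 comes after Cbfb and Runx3, and Sall1 lies level with Sall2.

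A list of 25 further transcription factors of myeloid cells had 21 (84.0%) detected, against 67.2% of all rows, and a median value of 911. Among the highest were Id2 at 6320 and Mef2a at 4132. Id2, which encodes an inhibitor of helix-loop-helix factors, had a length-scaled level of 94.0, and Spi1 one of 88.0. Blood progenitor factors were spread over the list, with Lmo2 at 2346, Lyl1 at 721, Tal1 at 267 and Gata2 at 95. They were named after their values were seen, and Tal1 and Gata2 lay under the median of detected genes. The progenitor factor Myb was lowest among the detected genes at 24, and Cebpe, Gfi1b and Gata1, factors of granulocytes, platelets and red cells, were listed at 0.

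Marker genes of cell types were set beside the 9 genes. Their values carry the same limit, since fewer cells of a type and less RNA per cell cannot be told apart in a bulk culture. All 22 microglial genes listed were detected, against 67.2% of all rows, with a median value of 7337.5. Ctss and Sparc were among the highest at 73268 and 45283, although Sparc is also made by matrix-forming cells. The markers that set microglia apart from other macrophages were lower, with P2ry12 at 1218, Tmem119 at 984 and Siglech at 738. These 3 are named here for their known specificity, after their values were seen. Slc2a5 was lowest at 12.

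Genes listed as markers of other macrophages of the brain gave a mixed picture. Of 10 border macrophage genes 9 were detected, against 67.2% of all rows. Stab1 was at 17275, Colec12 at 11982, Ms4a7 at 7582 and Mrc1 at 7012. F13a1, Pf4 and Cbr2 were at 543, 327 and 124. The more restricted Lyve1 and Cd163 were both at 21, and Cd209f was listed at 0. Whether microglia or other cells of the culture made these transcripts was not tested. The median of this list was 435 by value, under the 469 of detected genes. Per length its median was 2.67 times that of detected genes, so the side on which the list falls depends on the scale. How much of the Spi1, Irf8 or Csf1r value came from each kind of macrophage was not tested.

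Blood cells that also use these genes had few detected markers, in each list a smaller share than the 67.2% of all rows. None of 6 mast cell markers was detected, and 5 of them were listed at 0. Of 9 neutrophil and granulocyte markers with a row 3 were detected, led by S100a8 at 129, and Elane, Camp, Ltf, Ngp and Retnlg were listed at 0. Monocyte markers were detected in 3 of 6 cases. The highest of these were Vcan at 1386 and Chil3 at 592, genes that other cells also use, while Ccr2 was at 39 and Ly6c2 at 1. Of 7 dendritic cell markers 3 were detected, led by Itgax at 772, and Clec9a, Cd209a and Ccr7 were listed at 0. Of 9 lymphocyte markers 3 were detected, led by Cd3d at 202, and the B cell gene Cd79b was listed at 0. Of 8 megakaryocyte and erythroid markers 3 were detected, led by Itga2b at 215, and Gp9 and Hbb-bs were listed at 0.

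Glia and connective tissue cells, which can make CSF1, were clearly represented. All 12 astrocyte markers were detected, against 67.2% of all rows, with a median value of 2966.5, led by Gfap at 17222. Of 12 mesenchymal markers 11 were detected with a median value of 2899.5, led by Fn1 at 95749. Of these 12, 8 exceeded the median of detected genes, while Lum, Pdgfra, Fbln1 and Rgs5 were under it at 455, 188, 126 and 9. Endothelial markers had a median of 36, with 7 of 9 detected and Flt1 far above the others at 2427, and Tek was listed at 0. Neuronal markers had a median of 20, with 6 of 9 (66.7%) detected, near the 67.2% of all rows. Among these, Stmn2 at 3802, Map2 at 868 and Nefm at 508 exceeded the median of detected genes, while Slc17a6 was listed at 0. Exons of Map2 (16449 bases) share 124 bases with a gene on the opposite strand, and those of Nefm (5782 bases) share 1108. No such overlap was found for Stmn2. The cells that made the Csf1 transcript in this culture were not tested.

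**Figure D5:**
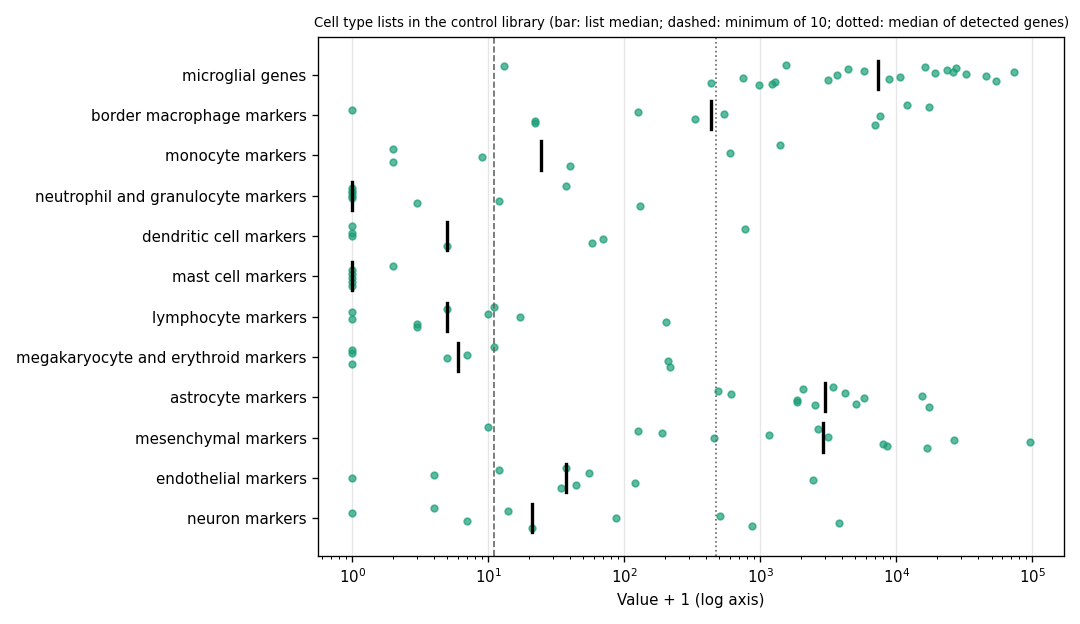
Value + 1 (log x axis) of each marker gene in the control library, by cell type list, with 1 point per gene and a black bar at the list median. The dashed line marks the detection minimum of 10 and the dotted line the median of detected genes. Microglial, astrocyte and mesenchymal lists have medians of 7337.5, 2966.5 and 2899.5, and the lists of other blood cells lie mostly at or under the minimum.

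Promoter sequence was a feature that the choice of genes had not used. RefSeq promoters on GRCm38.p6 (250 bases before to 50 after each annotated start) were read for 6 of the 9 genes, namely Csf1, Csf2, Csf2ra, Irf8, Runx1 and Sall1, with 10 promoters in all. The sources used here held no promoter for Csf1r, Csf2rb and Spi1. Both strands were searched for the core of the PU.1 site (GAGGAA), a RUNX site (TGTGGT), a tandem IRF site (GAAA, any 2 bases, then GAAA again) and the composite PU.1 and IRF site (GGAA, any 2 bases, then GAAA). Of 32851 promoters 28.3% held GAGGAA at least once and 4.82% at least 2 times. TGTGGT was in 16.8%, the tandem IRF site in 3.44% and the composite site in 2.72%. Matches of different motifs can overlap, since the composite site begins with the last letters of the PU.1 core.

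The PU.1 core occurred in the promoter of Csf2ra, where 2 copies follow each other directly, 14 and 8 bases before the start, and once in 1 of the 2 Runx1 promoters. TGTGGT occurred 2 times in the other Runx1 promoter. Such matches are common, as 28.3% of all promoters held the PU.1 core and 16.8% held TGTGGT. Neither IRF motif was found in the 10 promoters, and the promoters of Csf1, Csf2, Irf8 and Sall1 held none of the 4. The Csf2ra promoter is printed because it holds the paired copies, which are in capitals. It lies at chr19:61228369-61228668 and is written along the minus strand.
Csf2ra: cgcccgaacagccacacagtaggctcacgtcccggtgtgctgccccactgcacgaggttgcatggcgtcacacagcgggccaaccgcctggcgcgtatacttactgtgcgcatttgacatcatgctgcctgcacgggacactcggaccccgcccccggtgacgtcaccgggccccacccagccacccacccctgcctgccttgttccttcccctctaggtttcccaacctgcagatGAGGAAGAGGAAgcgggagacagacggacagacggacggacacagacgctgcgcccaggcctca
A match is a description of letters in this window and not a bound site.

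The promoters also varied in their content of CpG dinucleotides. The promoter of Csf2, the gene listed at 0, held 3, against 23 for Csf2ra, 16 for Csf1 and a median of 7 over all promoters. The Csf2 window (chr11:54249850-54250149, minus strand) lies wholly upstream of the GENCODE gene span, which ends at 54249667. Its CpG and motif counts therefore do not cover the GENCODE start. Among genes with several starts, Runx1 had 2 CpG at one and 35 at the other, and Irf8 had 38 and 8. The 3 Sall1 promoters held 18 to 39. With 1 undetected gene among the 6 this is a description and no relation was tested.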

How the data were processed

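RNA-seq was measured in 1 library of control VM-derived mixed glia. The study's methods describe trimming at a quality score of 20, alignment to GRCm38/mm10 with STAR, and HTSeq-count on exons of RefSeq release 105. The submitters' processing notes name TopHat and edgeR instead. The deposited values are normalised read counts that the authors gave as whole numbers, handled here as a score. The normalisation, strand setting and treatment of multi-mapped reads are not given in the sources used here. The number of reads is unknown, so no interval or floor is given.

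Rows were matched by symbol, or by older symbols from RefSeq, to GENCODE M21 (GRCm38), which gave a length for 22899 rows (98.4%). Level differences used log2(length-scaled level + 1), where length is the union of annotated exons. This scale understates differences of low genes. No comparison was tested statistically. The members and gene lists were chosen with earlier results of these data known. Named genes were all 9, all CSF, receptor, Irf, Runx and Sall genes, and in other lists the 3 highest, the lowest detected and those at 0; a few others were named after their values were seen, and some genes that the rule selects are not reported here. Coding sequences were aligned with Biopython 1.88 in Python 3.11.15, with pandas 2.3.3.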

Additional observations from a re-analysis of the deposited data

How the results depend on the processing

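With 1 library no replicate could be left out, and values were compared without an error: a level difference was taken as moved when it shifted by over 1.5-fold, a position when it shifted by over 10 points. All 33 recomputed level differences between pairs of genes kept their direction, and 14 moved. The orders within the transcription factor families were not among them. Csf1 minus Il34 became 5.08 with the median length of protein-coding transcripts, 5.19 without division by length and 4.32 with a pseudocount of 0.1. Csf2rb minus Csf2ra became -0.25 with the median coding length, -0.047 without division by length and -0.46 with both beta chain genes summed. Csf2rb minus Csf2rb2, 0.20 as reported, became 1.74 with the median coding length and 0.82 without division. Spi1 minus Irf8 became 1.38 with the longest transcript and 0.63 without division, and Irf8 minus Runx1 became 0.53 without division. Runx1 minus Sall1 became 2.66 with the longest transcript, 4.18 with the median coding length and 3.21 without division. These shifts follow from the lengths, the pseudocount or the adding of Csf2rb2 to Csf2rb, the terms that were changed. Of 24 recomputed positions 2 moved: Runx1 to 69.5% per length, and Sall1 to 21.9% among genes at 100 or more. The 9 genes included 8 detected at minima of 1, 3 and 100. The 16 values per 1000000 recomputed without Rn45s or without the 10 highest genes moved by less than 1.5-fold, as did 26 of 39 list medians relative to detected genes. The 18 shares at 75 and 100 bases moved by less than 10 points. The lack of a replicate and the unknown depth limit every value to this library.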
